A study of Homo sapiens with 18 samples.

Results

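A549 cells transfected with the BLM siRNA named siRNA3 were compared with A549 cells transfected with a control siRNA. The comparison held 6 of the 18 libraries of the series, siRNA3 replicates 1 to 3 and control replicates 1 to 3, and was chosen by these labels, with genes kept at 1 CPM (counts scaled to a common library total) or more in at least 3 of the 6 libraries. This left 13344 of 27968 genes. A549 is a lung adenocarcinoma cell line with loss of KEAP1, the adaptor that keeps the oxidative stress factor NRF2 low. Both groups grew in DMEM with serum, and their RNA was sequenced after ribosomal RNA removal with strand kept. The protocols name a flat and a 3D culture without assigning libraries to them. The A549 libraries of siRNA1 and siRNA2, 3 each, are other siRNAs against BLM and enter only the direct comparisons further down; the remaining libraries come from the breast cancer line MDA-MB-231. Neither the sequence of siRNA3 nor its dose, the time after transfection or the number of separate cultures is stated, so the p-values speak of the variation among these 6 libraries, part of which may be technical.

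BLM is a RecQ helicase. With the topoisomerase TOP3A and the scaffold proteins RMI1 and RMI2 it forms the dissolvasome, which takes apart double Holliday junctions without exchange of flanking DNA, and it also takes part in resection of DNA ends with DNA2. Its loss causes Bloom syndrome, marked by frequent exchange between sister chromatids. The BLM gene is transcribed with the replication genes as cells pass from G1 into S phase.

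The siRNA3 and control libraries held 30887830 to 40328208 expected counts, with 5.64% to 6.78% of them in each library's top 10 genes. Keratins of simple epithelia were high in every library: KRT8 had 2023, 2094 and 2174 CPM with siRNA3 and 1886, 1904 and 1966 CPM in control. The surfactant genes SFTPB and SFTPC were below 0.1 CPM in every library, and only 4 of 15 alveolar markers were tested. The alveolar list summed to 647 to 711 CPM with siRNA3 and 395 to 432 CPM in control. Most of it came from CAV1, a caveolin also made by other cells, and from the lipid transporter ABCA3. ABCA3 had 117, 120 and 74.3 CPM with siRNA3 and 28.1, 25.1 and 30.7 CPM in control, and CAV1 had 531, 465 and 527 CPM with siRNA3 and 301, 322 and 334 CPM in control. Summed levels of markers of other cell types were 41.6 to 47.6 CPM with siRNA3 and 13.2 to 14.8 CPM in control for 11 fibroblast genes, almost all of it COL1A1 and THY1, and 45.2 to 48.6 and 25.7 to 30.3 CPM for 13 leukocyte genes, most of it CD68. The defining leukocyte gene PTPRC was at most 0.0323 CPM with siRNA3 and at 0 in control, and of 8 endothelial genes none passed the filter.

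One library stood apart. In siRNA3 replicate 3 the median deviation from the group mean ran from 0.43 (log2) for transcripts under 500 bases to -0.39 for those over 8000 bases, where RSEM's length is used. Across 14098 genes the Spearman correlation of deviation and length was -0.665 in this library, against 0.562 and 0.482 in siRNA3 replicates 1 and 2 and -0.424 to 0.23 in the controls. In this description the 3 deviations of a group sum to 0, so the slopes of replicates 1 and 2 and of replicate 3 are tied. They do not show which libraries carry the trend. Main results are therefore given with and without replicate 3. For lists of short or long transcripts they are also given from a fit of all 6 libraries with each library's trend over transcript length removed. That fit called 9381 genes (70.3%), 4468 higher (33.5%) and 4913 lower (36.8%). Leaving out replicate 3 gave a larger length trend against control. Median log2 fold changes then ran from -0.20 for transcripts under 500 bases to 0.31 for those over 8000 bases. With all 6 libraries these medians were 0.06 and 0.14, and with the trend removed 0.06 and -0.05. The removed trend is that of each library about the mean of all 6, so length-related differences between siRNA3 and control are removed too. Medians near 0 across lengths thus follow from the method, and the test makes no allowance for the fitted trends. Values given without replicate 3 carry the larger length trend.

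**Figure D1:**
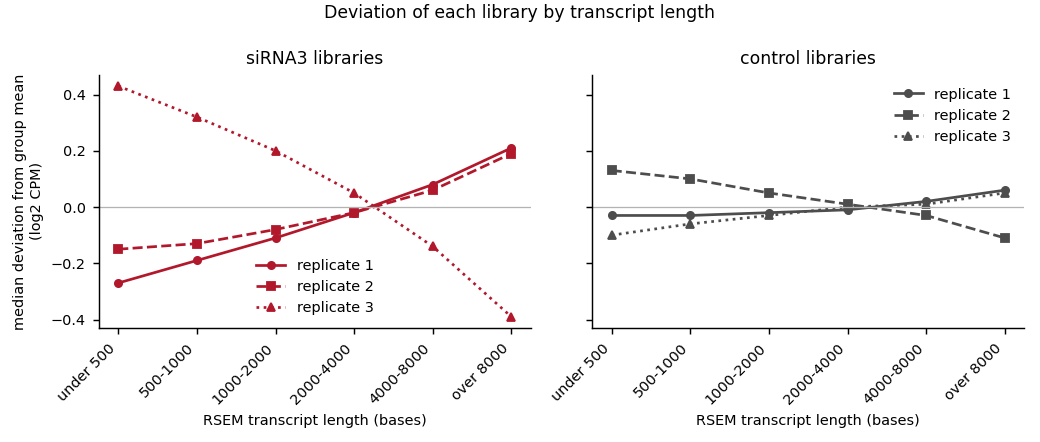
Median deviation of each library from the mean of its group (log2 CPM, y axis) by RSEM transcript length in bases (x axis), siRNA3 libraries at left and control libraries at right, 1 line per replicate. siRNA3 replicate 3 falls from 0.43 for the shortest transcripts to -0.39 for the longest, while control libraries stay between 0.13 and -0.11.

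BLM mRNA fell with siRNA3. Its level was 6.17, 5.98 and 6.70 CPM with siRNA3 and 76.0, 79.1 and 69.2 CPM in control, which leaves 8.41% of control. The groups did not overlap, and the log2 fold change was -3.57 ± 0.10 (standard error, edgeR quasi-likelihood test, Benjamini-Hochberg adjusted p = 5.56e-07), or -3.62 without siRNA3 replicate 3. Across all genes, 8154 of 13344 passed an adjusted p of 0.05, which is 61.1%: 4158 higher (31.2%) and 3996 lower (29.9%). Called genes that with a log2 fold change of 1 or more in size numbered 2282 (17.1%), 1278 higher (9.58%) and 1004 lower (7.52%). Without siRNA3 replicate 3 the test called 9632 genes (72.2%), 4833 higher (36.2%) and 4799 lower (36%), and 8086 genes were called in both fits in the same direction with 0 called in opposite directions. With so many genes called, a list in which 61.1% of members are called stands no higher than all genes, and the median log2 fold change over all genes tested was 0.01. In bulk RNA, fewer cells of a kind and less RNA per cell cannot be told apart.

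Most genes that work with BLM fell, but TOP3A of the dissolvasome was not called. Of 14 BLM partners and RecQ helicases 12 fell, BLM included, and 0 rose (median log2 fold change -0.87; -0.85 without replicate 3). RMI1 had 16.4, 15.7 and 14.7 CPM with siRNA3 and 41.6, 43.9 and 41.6 CPM in control, a log2 fold change of -1.44 ± 0.08 (adjusted p = 3.91e-06). RMI2 had 13.5, 15.4 and 18.3 CPM with siRNA3 and 50.9, 54.3 and 47.7 CPM in control, a log2 fold change of -1.70 ± 0.12. The groups did not overlap for either gene, as was so for 67.2% of all genes tested in one or the other direction. TOP3A, the topoisomerase of the same complex, was not called: it had 62.9, 69.7 and 59.9 CPM with siRNA3 and 68.1, 67.8 and 74.3 CPM in control, with overlapping groups (log2 fold change -0.13 ± 0.09, edgeR adjusted p = 0.245). Among the nucleases and translocases that act with BLM, DNA2 fell (-1.17 ± 0.09), as did the exonuclease EXO1 (-0.99 ± 0.09) and FANCM, a DNA translocase of the Fanconi pathway (-1.1 ± 0.12). Of the other RecQ helicases RECQL (-0.74 ± 0.09), RECQL4 (-0.68 ± 0.10) and WRN (-0.31 ± 0.10) fell, and RECQL5 was at -0.03 ± 0.11 (adjusted p = 0.811 in edgeR).

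Proliferation genes fell as well. Of 36 replication and G1/S genes 32 fell and 0 rose (median -0.86; 33 and -0.92 without replicate 3), and 29 of 30 genes of G2/M and mitosis fell with 0 higher (median -0.88; all 30 and -0.93 without replicate 3). E2F2, a transcription factor of the G1/S programme, had 5.31, 6.24 and 5.19 CPM with siRNA3 and 23.1, 21.8 and 24.7 CPM in control (-2.06 ± 0.11). The groups did not overlap. POLE2, a subunit of the leading strand polymerase, fell by 1.76 on the log2 scale, GINS4 of the replicative helicase by 1.67 and the loading factor MCM10 by 1.42. Replication genes that were not called were the ribonucleotide reductase subunits RRM1 (-0.19) and RRM2 (-0.01) and the cyclins CCNE1 (0.21) and CCNE2 (-0.30). Among mitotic genes CCNA2, the S and G2 cyclin, had 42.8, 43.5 and 41.4 CPM with siRNA3 and 110, 118 and 108 CPM in control (-1.40 ± 0.08). The spindle motor KIF11 fell by 1.29, the phosphatase CDC25C by 1.40 and the checkpoint kinase BUB1 by 0.99 on the log2 scale. CCNB2 was the 1 mitotic gene not called (-0.27).

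Repair genes followed, and p53 targets went the other way. Among 29 genes of homologous recombination and the Fanconi anaemia pathway, 24 fell and 0 rose (median -0.82); without replicate 3 the counts were 25 and 1, the riser being RAD50 of the end-binding MRN complex (0.26 without and 0.14 with replicate 3). FANCD2, the pathway's central clamp (-1.07 ± 0.08), FANCC (-1.11 ± 0.08) and RAD54B (-1.23 ± 0.09) fell too. Of 30 p53 targets 22 rose and 1 fell (median 0.70; 22, 1 and 0.67 without replicate 3). CDKN1A, the CDK inhibitor p21, had 143, 139 and 167 CPM with siRNA3 and 57.8, 61.9 and 64.4 CPM in control (1.29 ± 0.10). BTG2, an antiproliferative gene, had 30.6, 31.4 and 36.9 CPM with siRNA3 and 9.15, 9.44 and 7.86 CPM in control (1.90 ± 0.12). SPATA18, of mitochondrial quality control, rose by 2.66 ± 0.14, the death gene BBC3 by 1.52 ± 0.14 and the damage recognition gene XPC by 1.2 ± 0.09. The member that fell was GDF15, a stress cytokine, with 4.58, 4.36 and 5.97 CPM with siRNA3 and 6.83, 7.25 and 7.84 CPM in control (-0.56 ± 0.14). GDF15 is also a target of the amino acid response described below, and whether this bears on its fall was not tested.

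Genes of the contractile cytoskeleton rose. SRF, with its actin-sensing partners MKL1 and MKL2, drives genes of smooth muscle actin bundles. Of 26 tested members of the SRF and smooth muscle list (30 in the files) 20 rose and 0 fell, with a median of 1.01 against 0.01 over all genes tested; without replicate 3, 23 rose and the median was 1.1. ACTA2, smooth muscle actin, had 41.8, 41.4 and 49.9 CPM with siRNA3 and 2.37, 2.11 and 2.38 CPM in control (4.28 ± 0.12). TAGLN, an actin crosslinker, had 47.4, 59.9 and 58.3 CPM with siRNA3 and 4.71, 5.09 and 5.27 CPM in control (3.46 ± 0.12). TPM4, a tropomyosin that coats actin filaments, had 974, 968 and 1094 CPM with siRNA3 and 195, 188 and 179 CPM in control (2.43 ± 0.10). In all 3 genes every siRNA3 library lay above every control library. TPM1 (1.99 ± 0.11), TPM2 (1.46 ± 0.11) and the calponin CNN2 (1.54 ± 0.12) rose too. The genes most restricted to smooth muscle stayed under the filter: CNN1 had 0.129 to 0.268 CPM with siRNA3 and 0.0249 to 0.0980 CPM in control, and ACTG2 had at most 0.129 CPM with siRNA3 and 0 in control. SRF itself had 32.7, 30.1 and 31.3 CPM with siRNA3 and 21.7, 22.1 and 24.5 CPM in control (0.46 ± 0.09).

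YAP is a coactivator that binds DNA through TEAD factors and responds to cell shape and crowding. The list of 27 genes holds YAP and TEAD targets and also pathway members such as YAP1 and TEAD1. Of the 27 genes 18 rose and 5 fell (median 0.80; 19, 5 and 0.87 without replicate 3). With the length trend removed 18 were higher and 5 lower (median 0.66). CTGF, a secreted matrix-bound protein now named CCN2, had 61.9, 64.8 and 75.5 CPM with siRNA3 and 12.6, 13 and 13.6 CPM in control (2.36 ± 0.10). CYR61, its relative, had 179, 184 and 220 CPM with siRNA3 and 26.9, 30.8 and 30.7 CPM in control (2.72 ± 0.12). ANKRD1, a nuclear ankyrin repeat protein, had 38.8, 39.7 and 45.9 CPM with siRNA3 and 3.92, 4.73 and 3.60 CPM in control (3.34 ± 0.13). None of these groups overlapped. RBMS3, an RNA-binding protein (3.90 ± 0.15), the receptor kinase AXL (2.07 ± 0.11) and the junction protein AJUBA (1.24 ± 0.09) rose as well. The 5 that fell were CRIM1 (-1.35 ± 0.14), the DNA-binding partners TEAD1 (-0.46) and TEAD4 (-0.34), the coactivator WWTR1 (-0.27) and the ecto-enzyme NT5E (-0.40).

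The promoters of CTGF and ANKRD1 are shown because both genes rose and both hold the letters bound by TEAD factors. The windows are the 250 bases before the gene start in RefSeq, GRCh38.p14, minus strand in both cases: chr6:131951373-131951622 for CTGF and chr10:90921088-90921337 for ANKRD1. Capitals mark CATTCC on either strand, here read as its reverse complement.
CTGF: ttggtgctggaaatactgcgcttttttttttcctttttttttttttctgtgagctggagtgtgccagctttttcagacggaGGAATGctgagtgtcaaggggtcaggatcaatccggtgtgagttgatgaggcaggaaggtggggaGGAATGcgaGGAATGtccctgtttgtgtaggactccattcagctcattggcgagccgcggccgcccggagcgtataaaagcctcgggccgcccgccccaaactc
ANKRD1: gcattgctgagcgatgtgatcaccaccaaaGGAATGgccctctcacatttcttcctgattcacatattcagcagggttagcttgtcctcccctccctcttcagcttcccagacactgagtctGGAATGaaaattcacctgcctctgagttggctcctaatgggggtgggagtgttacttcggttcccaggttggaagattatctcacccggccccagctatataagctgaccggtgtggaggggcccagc
The CTGF window holds 3 matches, which begin 95 to 169 bases before the start, and the ANKRD1 window holds 2, which begin 128 to 220 bases before it. Of the 27 listed YAP and TEAD genes 20 had a window in the table and 10 of these held the letters, while 14.3% of the 27305 genes in the table did (11.9% of 35116 windows). The list was assembled from known targets and pathway members, so this share describes the list and not the response to siRNA3.

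AP-1 genes were split within families. Of 29 AP-1 and immediate early genes 16 rose and 5 fell (median 0.54; 16, 7 and 0.36 without replicate 3). JUN had 98.9, 97.2 and 99.8 CPM with siRNA3 and 11.3, 12.3 and 13.4 CPM in control (3.00 ± 0.09). Its relatives JUNB (1.17 ± 0.09) and FOSB (2.53 ± 0.26) rose, while FOS had 1.45, 1.29 and 1.68 CPM with siRNA3 and 2.62, 2.19 and 2.57 CPM in control (-0.74 ± 0.17). No group of JUN or FOS values overlapped the other. CREB5, a bZIP factor that pairs with JUN, had 23.5, 19.5 and 16.5 CPM with siRNA3 and 0.324, 0.257 and 0.220 CPM in control (6.2 ± 0.22). Under 1 CPM in control, CREB5 passed the filter only through the siRNA3 libraries, which left no outcome but a higher level. KLF6, a zinc finger factor, rose by 1.32 ± 0.09 and DUSP10, a phosphatase of the stress kinases JNK and p38, by 1.85 ± 0.15. The early gene EGR1 was not called, at 0.866, 0.808 and 1.07 CPM with siRNA3 and 0.748, 1.00 and 1.25 CPM in control.

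In the TGF-beta list the 3 TGFB ligands and 3 latency proteins rose, while ID1 and ID2, usual targets of the BMP branch, fell. Of 26 tested genes 14 rose and 8 fell (median 0.51; 15, 9 and 0.65 without replicate 3). With the length trend removed 15 were higher and 8 lower (median 0.46). The feedback inhibitors SMAD7 (1.34 ± 0.09) and PMEPA1 (1.29 ± 0.09), the receptor TGFBR2 (1.13 ± 0.08) and the latency proteins LTBP1 (0.53), LTBP2 (2.46 ± 0.15) and LTBP3 (1.55 ± 0.12) rose, and the coreceptor TGFBR3 fell (-1.37). Completing the family, the ligands TGFB1 (1.31 ± 0.11), TGFB2 (1.54 ± 0.13) and TGFB3 (0.72) were higher. On the other side ID2 had 65.7, 48.4 and 74.4 CPM with siRNA3 and 195, 227 and 186 CPM in control (-1.69 ± 0.16), and ID1 fell by 1.13 ± 0.16 on the log2 scale, while ID3 was at -0.04 and was not called. The ID genes were picked after their values were seen.

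Matrix genes rose, several of them very long transcripts whose level in siRNA3 replicate 3 was lower. Of 25 matrix and matricellular genes tested 16 rose and 1 fell (median 1.02; 20, 1 and 1.13 without replicate 3; 17, 4 and 0.96 with the length trend removed). TNC, tenascin C, a matrix protein of wounds and embryos, had 71.4, 61.1 and 47.7 CPM with siRNA3 and 0.673, 0.617 and 1.05 CPM in control (6.25 ± 0.23). COL12A1, a collagen that decorates fibrils, had 144, 150 and 72.1 CPM with siRNA3 and 10.3, 8.82 and 9.90 CPM in control (3.66 ± 0.27, or 3.93 without replicate 3). COL5A1, of fibril-forming collagen, had 712, 740 and 463 CPM with siRNA3 and 84.4, 74.7 and 86.6 CPM in control (2.96 ± 0.18, or 3.15 without replicate 3). For all 3 genes the lowest siRNA3 library still lay above the highest control library. COL17A1, the hemidesmosome collagen (3.36 ± 0.17), LAMB3 of laminin (1.84 ± 0.11) and the proteoglycan SPOCK1 (1.79 ± 0.09) rose, and the fibrillin FBN2 fell (-0.98 ± 0.19). Among 16 tested proteases and inhibitors 13 rose and 2 fell. ADAM12, a membrane protease, had 36.0, 33.5 and 28.2 CPM with siRNA3 and 2.54, 2.91 and 2.65 CPM in control (3.59 ± 0.13). The gelatinase MMP2 had 83.4, 91.9 and 64.5 CPM with siRNA3 and 8.16, 9.28 and 8.92 CPM in control (3.19 ± 0.14). The 2 that fell were the membrane-type protease MMP15 (-1.78 ± 0.11) and the epidermal protease MMP28 (-0.95).

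Integrin genes changed in both directions, 7 of 16 higher and 3 lower. Their called share was near the 61.1% of all genes tested. ITGB6, whose product activates latent TGF-beta in epithelia, had 10.9, 11.6 and 9.32 CPM with siRNA3 and 1.37, 1.80 and 1.1 CPM in control (2.89 ± 0.18). ITGB5 had 135, 145 and 130 CPM with siRNA3 and 337, 327 and 349 CPM in control (-1.31 ± 0.09). Collagen-binding ITGA11 rose (2.43 ± 0.27) and ITGA2 fell (-0.90 ± 0.14). Of 15 tested mesenchymal transition genes 8 rose and 0 fell (median 0.68; 9, 0 and 0.86 without replicate 3). With the length trend removed 9 were higher and 1 lower (median 0.51). The called share of this list was below the 61.1% of all genes tested, of which 31.2% were higher. SNAI2, a transcriptional repressor of epithelial genes, had 7.73, 7.95 and 10.0 CPM with siRNA3 and 0.998, 0.823 and 1.13 CPM in control (3.12 ± 0.18). COL1A1 (2.55 ± 0.16), CDH2, the N-cadherin gene (1.34 ± 0.10), SPARC (1.57 ± 0.10) and THY1 (1.29 ± 0.10) rose, whereas the related repressors SNAI1 (0.06), TWIST1 (-0.25) and ZEB1 (0.17; 0.35 and called without replicate 3) were not called.

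The epithelial list had no common direction. Of 20 tested genes 7 rose and 4 fell (median 0.22; 10, 5 and 0.25 without replicate 3). CDH1, the E-cadherin gene of adherens junctions, had 4.08, 4.07 and 2.92 CPM with siRNA3 and 47.5, 40 and 43.0 CPM in control (-3.55 ± 0.14). CLDN4, a tight junction claudin, had 18.1, 19.0 and 22.4 CPM with siRNA3 and 3.92, 3.73 and 4.34 CPM in control (2.31 ± 0.12). KRT80 (1.56 ± 0.09) and KRT19 (0.90 ± 0.11) rose and the junction scaffold TJP3 fell (-1.60 ± 0.19). The other falls were the claudin CLDN1 (-0.35 ± 0.08) and the tight junction gene CGN (-0.96). Airway secretory genes fell in 6 of 10 tested cases and rose in 2 (median -0.78). AGR2, a secretory protein disulfide isomerase, had 27.1, 26.7 and 42.1 CPM with siRNA3 and 109, 81.7 and 98.0 CPM in control (-1.59 ± 0.19). The adhesion gene CEACAM6 fell by 1.65 ± 0.13 and the trefoil factor TFF1 by 2.44 ± 0.35, while MUC1 (0.89 ± 0.23) and LCN2 (1.32 ± 0.23) rose.

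Receptor and ligand genes of the ERBB family were rearranged. ERBB3, the receptor without strong kinase activity that pairs with ERBB2, had 0.754, 1.07 and 0.637 CPM with siRNA3 and 14.7, 10.6 and 12.4 CPM in control (-3.93 ± 0.21). ERBB2 itself was higher (0.39). EGFR was not called (0.01 ± 0.27) and is a case where 1 library decides: it had 246, 260 and 113 CPM with siRNA3 and 207, 179 and 230 CPM in control, and without replicate 3 the log2 fold change was 0.30 (edgeR adjusted p = 0.00668). The ligands AREG (-1.02 ± 0.16) and EREG (-0.90 ± 0.14) and the feedback inhibitor ERRFI1 (-1.12 ± 0.08) fell, and TGFA rose (0.69 ± 0.10). In all 5 of 15 tested members rose and 7 fell.

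**Figure D2:**
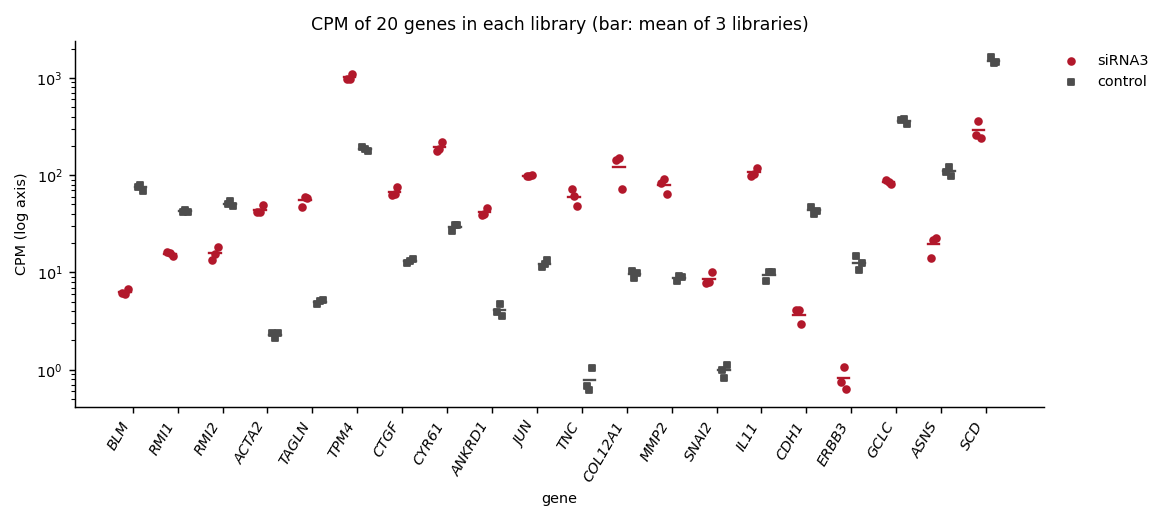
CPM on a log axis (y) of 20 genes (x) in each library, red circles for siRNA3 and grey squares for control, with a bar at the mean of 3 libraries. BLM, RMI1 and RMI2 lie lower with siRNA3, the contractile, YAP, AP-1, matrix and mesenchymal genes and IL11 lie higher, and CDH1, ERBB3, GCLC, ASNS and SCD lie lower, with no overlap between groups for any of the 20.

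Genes of the oxidative stress response fell. NRF2 drives glutathione and NADPH enzymes, and without working KEAP1 its targets are high in A549 cells. Of 33 NRF2 targets and redox enzymes 25 fell and 3 rose (median -0.54; 28, 3 and -0.63 without replicate 3). GCLC, the catalytic subunit of glutathione synthesis, had 88.4, 85.5 and 80.9 CPM with siRNA3 and 373, 374 and 335 CPM in control (-2.09 ± 0.09). Its modifier subunit GCLM had 109, 85.8 and 96.5 CPM with siRNA3 and 198, 199 and 191 CPM in control (-1.02 ± 0.10). The reductases GSR (-1.30 ± 0.10) and TXNRD1 (-0.97 ± 0.09) and the pentose phosphate enzyme PGD (-0.98 ± 0.09) fell, as did AKR1C2 (-1.25 ± 0.11), whose near-identical AKR1C copies make its counts uncertain. HMOX1, another textbook target, was not called (-0.17 ± 0.12) and had 52.3, 54.5 and 71.1 CPM with siRNA3 and 63.9, 68.2 and 68.1 CPM in control; without replicate 3 it was called lower (-0.32). The 3 that rose were the cystine transporter SLC7A11 (0.48 ± 0.18), with 566, 453 and 322 CPM with siRNA3 and 334, 301 and 325 CPM in control and thus overlapping groups, ME1 (0.26 ± 0.09) and UGT1A6 (1.84 ± 0.38), whose exons are shared with other UGT1A genes.

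Amino acid response genes fell in part. ATF4 is translated when amino acids or protein folding fail and switches on serine, asparagine and transport genes. Of 29 tested genes of its list 15 fell and 1 rose (median -0.40; 18, 1 and -0.30 without replicate 3). The called share of the list was below the 61.1% of all genes tested, of which 29.9% were lower. ASNS, asparagine synthetase, had 14.2, 21.6 and 22.8 CPM with siRNA3 and 108, 122 and 98.5 CPM in control (-2.49 ± 0.18). CHAC1, which degrades glutathione, had 0.195, 0.420 and 0.603 CPM with siRNA3 and 4.29, 6.15 and 4.97 CPM in control (-3.68 ± 0.31). Under 1 CPM in every siRNA3 library, CHAC1 passed the filter only through the control libraries, which left no outcome but a lower level. The serine synthesis enzymes PHGDH (-1.46 ± 0.10) and PSAT1 (-1.39 ± 0.10), mitochondrial MTHFD2 of one-carbon metabolism (-1.68 ± 0.10) and CBS of transsulfuration (-1.61 ± 0.12) fell. TRIB3 and DDIT3, the stress genes of the same pathway, were not called: TRIB3 had 26.9, 30.8 and 36.6 CPM with siRNA3 and 29.8, 34.2 and 30.2 CPM in control, and DDIT3 had 8.15, 10.8 and 13.2 CPM with siRNA3 and 8.95, 8.92 and 7.77 CPM in control. The list's only riser was ATF5 (0.38). TRIB3, DDIT3 and ATF5 were picked after their values were seen.

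The promoters of CHAC1 and ASNS are shown because these 2 genes had the largest falls of the list and each holds the composite element that ATF4 binds with a C/EBP protein. The windows are again 250 bases before a RefSeq gene start in GRCh38.p14, chr15:40953221-40953470 on the plus strand for CHAC1 and chr7:97872409-97872658 on the minus strand for ASNS, which has 2 start windows in the table. Capitals mark TGATGNAA on either strand, where N is any base.
CHAC1: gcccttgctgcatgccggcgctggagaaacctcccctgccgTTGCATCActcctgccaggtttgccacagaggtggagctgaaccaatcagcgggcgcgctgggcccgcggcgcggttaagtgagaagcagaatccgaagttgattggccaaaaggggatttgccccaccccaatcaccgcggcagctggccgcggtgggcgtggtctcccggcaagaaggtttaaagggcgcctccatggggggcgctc
ASNS: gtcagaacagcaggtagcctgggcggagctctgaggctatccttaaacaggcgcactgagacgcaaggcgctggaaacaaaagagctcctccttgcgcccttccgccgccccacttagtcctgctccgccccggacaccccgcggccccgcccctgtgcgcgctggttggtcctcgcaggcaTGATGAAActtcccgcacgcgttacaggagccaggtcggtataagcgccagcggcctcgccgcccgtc
Each window holds 1 match, which begins 209 bases before the start in CHAC1 and 68 bases before it in ASNS. The letters were found in 3 of 23 listed genes with a window, the third being SLC1A5 (0.10, not called), and in 3.89% of all 27305 genes in the table (3.14% of 35116 windows).

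Most called genes of the endoplasmic reticulum and lipid lists fell. Of 20 unfolded protein response genes 11 fell and 1, HERPUD1 (0.56), rose (median -0.41; 14, 1 and -0.40 without replicate 3). The called share of these 20 was near the 61.1% of all genes tested, of which 29.9% were lower. The disulfide isomerase PDIA4 had 151, 160 and 165 CPM with siRNA3 and 334, 342 and 339 CPM in control (-1.09 ± 0.08), and the sensor kinase ERN1 fell by 1.02 ± 0.13. Of 27 cholesterol and fatty acid synthesis genes 17 fell and 2 rose (median -0.45; 17, 4 and -0.46 without replicate 3). SCD, which makes monounsaturated fatty acids, had 261, 360 and 243 CPM with siRNA3 and 1626, 1425 and 1460 CPM in control (-2.39 ± 0.16). SREBF1, the regulator of fatty acid synthesis, fell (-1.37 ± 0.14). MVD (0.24) and FDPS (0.37) were the 2 that rose. Glycolysis and hypoxia genes were divided, with 10 of 26 higher and 10 lower. ALDOC, the brain-type aldolase, had 0.949, 1.29 and 1.14 CPM with siRNA3 and 11.5, 11.6 and 11.7 CPM in control (-3.37 ± 0.14), and the hexokinase HK2 (-1.04 ± 0.14) fell whereas PFKFB4, a regulator of phosphofructokinase, rose (1.63 ± 0.13).

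Cytokine genes changed in both directions. Of 25 tested NF-kB and cytokine genes 8 rose and 8 fell (10 and 10 without replicate 3). With all libraries these shares were near those of all genes tested, 31.2% higher and 29.9% lower, so the list as a whole did not stand out. IL11, an IL6-family cytokine, had 98.3, 103 and 119 CPM with siRNA3 and 8.23, 10.2 and 10.1 CPM in control (3.49 ± 0.12). IL32 had 55.9, 54.2 and 76.0 CPM with siRNA3 and 3.24, 3.29 and 4.14 CPM in control (4.12 ± 0.17). CXCL5, a neutrophil attractant, had 116, 81.8 and 111 CPM with siRNA3 and 463, 544 and 536 CPM in control (-2.32 ± 0.15). PTGS2, the inducible cyclooxygenase (-1.32 ± 0.13), fell, and CCL2, a monocyte attractant, rose (1.31 ± 0.15). Interferon-stimulated genes rose in 9 of 23 tested cases and fell in 6 (10 and 6 without replicate 3). Their called share was also near the 61.1% of all genes tested. The antiviral GTPase MX1 had 4.08, 3.81 and 3.38 CPM with siRNA3 and 0.823, 0.849 and 0.759 CPM in control (2.21 ± 0.16), and TRIM22 rose by 2.05 ± 0.15. MX1 was under 1 CPM in every control library, so the filter left no outcome for it but a higher level. ISG15 (-0.04) and IFI6 (0.19) were not called, and IRF7, a factor of the same response, fell (-1.13 ± 0.20). Of 7 tested sensors of double-stranded RNA, DDX58 (0.95 ± 0.08) and IFIH1 (0.70 ± 0.13) rose and 1 fell; without replicate 3 the signalling adaptor MAVS and the kinase EIF2AK2 were called higher too, and with the length trend removed 2 sensors were higher and 3 lower. Of 13 genes of the RNA interference machinery, which siRNAs use, TARBP2 (0.84 ± 0.13) and AGO4 (0.47 ± 0.11) rose and PRKRA (-0.74 ± 0.10) and XPO5 (-0.23 ± 0.09) fell, against 7 higher and 2 lower without replicate 3 (median 0.19) and 2 higher and 4 lower with the length trend removed (median -0.13). These are long transcripts, with a median of 6692 bases. The call of XPO5 was lost without any 1 of the control libraries, and the calls of AGO4 and XPO5 were lost on log2 of TPM.

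**Figure D3:**
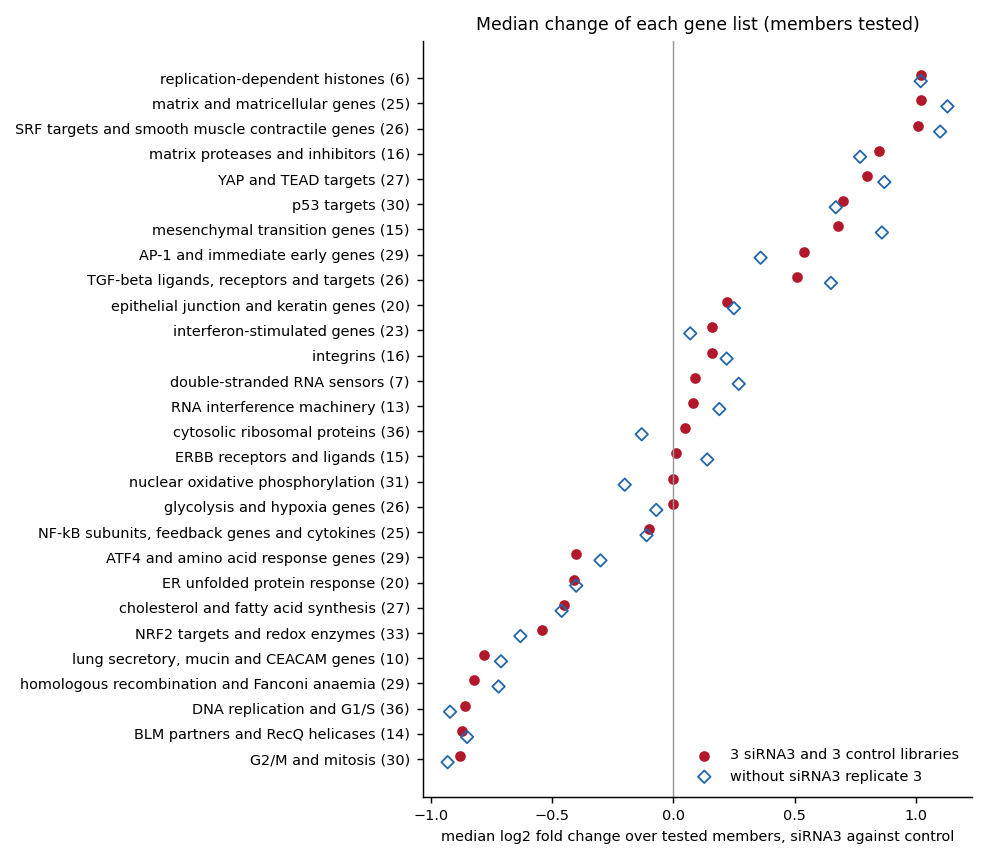
Median log2 fold change of siRNA3 against control (x axis) over the tested members of each gene list (y axis, number tested in brackets), red circles from all 6 libraries and open diamonds without siRNA3 replicate 3. The proliferation lists lie near -0.9 in both fits, the matrix, contractile and YAP lists near 1, and ribosomal and oxidative phosphorylation genes move from about 0 to -0.13 and -0.20.

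Lists of short transcripts, and single long transcripts, depended on siRNA3 replicate 3. Of 36 cytosolic ribosomal protein genes, with a median length of 737 bases, 2 rose and 0 fell with all libraries, and 2 rose and 14 fell without replicate 3 (median 0.05 and -0.13). With the length trend removed 11 were called higher and 6 lower (median 0.05), so the balance of these calls turned with the way the library was treated. The medians of the single siRNA3 libraries relative to control were -0.17, -0.06 and 0.35. RPL11, of the large subunit, had 599, 640 and 818 CPM with siRNA3 and 524, 555 and 490 CPM in control (0.39 ± 0.13, edgeR adjusted p = 0.0276), a call lost without any 1 of the control libraries, as was that of RPLP0 (0.35 ± 0.12). Of 31 nuclear oxidative phosphorylation genes 5 rose and 5 fell with all libraries, and 5 rose and 15 fell without replicate 3 (median 0.00 and -0.20). With the length trend removed 5 were called higher and 11 lower (median 0.00). COX7B, of cytochrome c oxidase, had 59.1, 64.0 and 100 CPM with siRNA3 and 144, 159 and 124 CPM in control (-0.94 ± 0.20, or -1.21 without replicate 3). Among long transcripts, picked after their values were seen, the filamin gene FLNA had 2596, 2620 and 1130 CPM with siRNA3 and 1641, 1582 and 2063 CPM in control; it was not called (0.26 ± 0.28), but was without replicate 3 (0.57). MYH9, non-muscle myosin, had 2708, 2694 and 1322 CPM with siRNA3 and 702, 675 and 815 CPM in control (1.62 ± 0.25, or 1.89 without replicate 3). MKI67, a proliferation marker, had 541, 582 and 262 CPM with siRNA3 and 880, 683 and 903 CPM in control (-0.83 ± 0.27, or -0.55 without replicate 3). In each of these long transcripts replicate 3 was the lowest siRNA3 library. Only 6 of 25 replication-dependent histone genes passed the filter, and 4 of them rose; the other 2, HIST1H2BK (-0.41) and HIST1H1C (-0.48), were called lower without replicate 3 and also with the length trend removed. Among the 4 were HIST2H2BE (1.46 ± 0.13) and HIST1H2BD (1.51 ± 0.14), and the call of HIST1H2AC (0.59 ± 0.19) was lost without siRNA3 replicate 1 and without control replicate 1 or 2.

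The largest rises included genes that A549 control cells barely transcribed. Among genes called in the same direction with and without replicate 3 and reaching a mean of 5 CPM, CGB5, a subunit gene of chorionic gonadotropin, stood highest: 17.8, 18.5 and 21.5 CPM with siRNA3 and 0.125, 0.0514 and 0.0980 CPM in control (7.66 ± 0.21). CGB5 and CGB8 (4.63 ± 0.22) lie among near-identical copies, so reads may be shared between them. PSG4, a pregnancy-specific glycoprotein with close relatives (6.18 ± 0.34), RASGRP3, a Ras exchange factor (5.16 ± 0.20), and DOCK2, a Rac exchange factor of leukocytes (4.57 ± 0.21), followed beside TNC and CREB5. RRAD, a small GTPase of muscle, had 58.4, 54.9 and 64.4 CPM with siRNA3 and 1.77, 2.29 and 1.96 CPM in control (4.88 ± 0.13). TMEM40 (4.84 ± 0.19), the membrane repair gene DYSF (4.47 ± 0.32) and TRIML2 (4.29 ± 0.17) are also among the 15 highest, as are ACTA2 and IL32. No siRNA3 value of these genes overlapped a control value, which follows from choosing the largest called changes. Those under 1 CPM in every control library, such as CGB5 and CREB5, passed the filter only through the siRNA3 libraries. For such genes the filter left no outcome but a higher level. Groups did not overlap for 67.2% of all genes tested.

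The largest falls were led by UNC13A, which primes secretory vesicles, at 1.2, 1.07 and 0.737 CPM with siRNA3 and 28.1, 23.3 and 27.6 CPM in control (-4.70 ± 0.17). SNAP25, a membrane fusion protein of the same step, had 6.14, 5.01 and 6.70 CPM with siRNA3 and 59.2, 61.0 and 58.7 CPM in control (-3.32 ± 0.12). ULBP1, a stress ligand seen by natural killer cells, fell by 3.71 ± 0.19 on the log2 scale, the mitochondrial creatine kinase CKMT1A, which has a near-identical copy, by 3.56 ± 0.19 and the lysosomal protease CTSV by 3.42 ± 0.14. FGL1 (-3.67 ± 0.21) and the fibrinogen chain FGG (-3.13 ± 0.26) fell, both liver-type secreted proteins, as did RIMKLA, an N-acetylaspartylglutamate synthase (-3.34 ± 0.24), the peptide hormone SPX (-3.31 ± 0.18) and TMEM64 (-3.06 ± 0.11). BLM, ERBB3, CHAC1, CDH1 and ALDOC are the other 5 of the 15 lowest. No siRNA3 value of these genes overlapped a control value either, which again follows from the choice.

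Direct tests against the other BLM siRNAs asked which differences from control also held against cells with siRNA1 and siRNA2. They used 1 fit of the 12 A549 libraries and 14098 genes, with CPM scaled over the 12. BLM had 6.37, 6.17 and 6.97 CPM with siRNA3, 1.2, 1.18 and 1.17 CPM with siRNA1 and 10.0, 10.5 and 10.9 CPM with siRNA2, so siRNA3 lay between them: 2.45 ± 0.11 above siRNA1 and -0.68 ± 0.08 below siRNA2 on the log2 scale (edgeR adjusted p = 3.94e-10 and 1.23e-05). In all 9743 genes (69.1%) differed between siRNA3 and siRNA1, 34.7% higher and 34.4% lower, and 8692 (61.7%) between siRNA3 and siRNA2, 32.4% higher and 29.2% lower. Called in the same direction against control, siRNA1 and siRNA2 were 1661 genes higher with siRNA3 (11.8%) and 1635 lower (11.6%); without siRNA3 replicate 3 there were 1773 and 1745 (3296 in all, or 23.4%, with it), of which 1479 and 1499 were the same genes. The 3 comparisons share the siRNA3 libraries.

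In the proliferation and p53 lists most members differed between siRNA3 and siRNA1, and fewer between siRNA3 and siRNA2. All 30 G2/M and mitosis genes were higher with siRNA3 than with siRNA1 (median log2 difference 4.26), and against siRNA2 4 were higher and 13 lower (median -0.27). CCNA2 had 44.2, 44.9 and 43.0 CPM with siRNA3, 2.74, 2.81 and 2.21 CPM with siRNA1, and 71.2, 79.7 and 87.4 CPM with siRNA2. Of 30 p53 targets 26 were lower with siRNA3 than with siRNA1 and 2 higher, and against siRNA2 10 were higher and 11 lower. CDKN1A had 148, 143 and 174 CPM with siRNA3, 948, 824 and 949 CPM with siRNA1 and 169, 170 and 152 CPM with siRNA2. The RMI genes differed from siRNA1 as well, RMI2 by 1.79 ± 0.13 and RMI1 by 0.84 ± 0.10, while TOP3A was higher with siRNA3 than with siRNA1 (0.62 ± 0.08) and siRNA2 (0.63 ± 0.08) though not called against control.

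**Figure D4:**
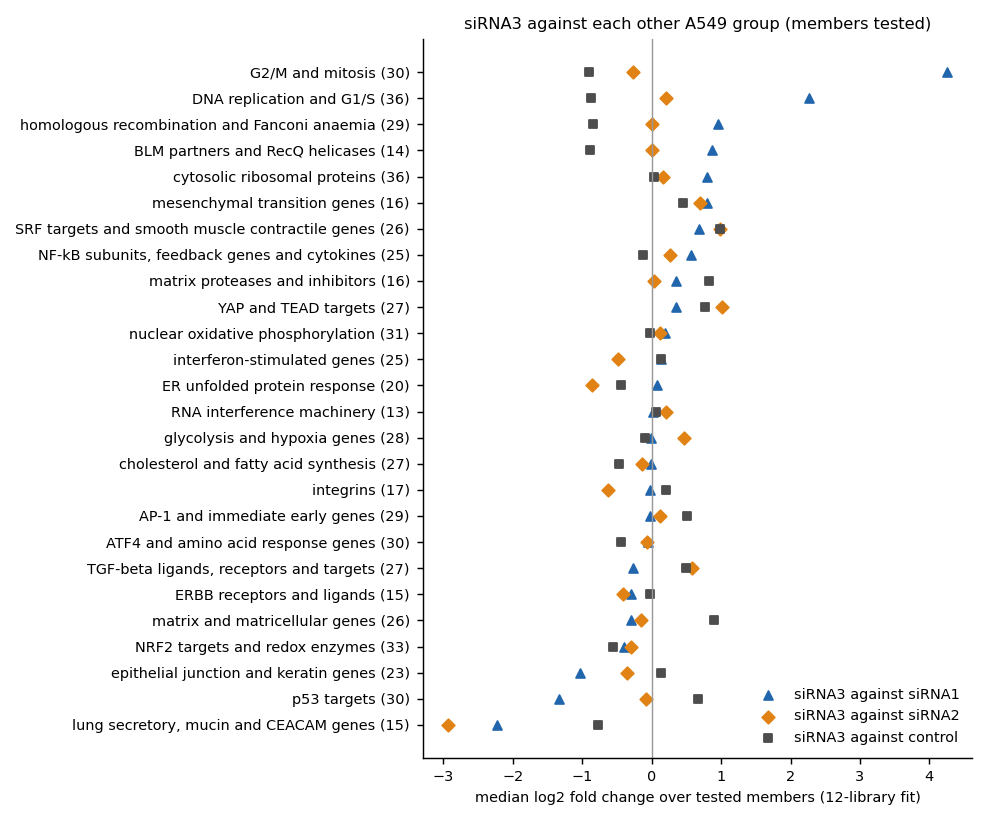
Median log2 fold change (x axis) over the tested members of each gene list (y axis, number tested in brackets) in siRNA3 against siRNA1 (blue triangles), siRNA2 (orange diamonds) and control (grey squares), from the 12-library fit. G2/M genes lie at 4.26 against siRNA1 but at -0.27 against siRNA2 and -0.90 against control, and airway secretory genes lie below 0 in all 3. Some airway members passed the filter only with the help of siRNA1 or siRNA2 libraries, which favours a lower level with siRNA3.

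Of the 32 lists, those of contractile, YAP and redox genes held the most members, by number, that set siRNA3 apart from all 3 other groups. Shorter lists held shares like those of the YAP and redox lists. Of 16 mesenchymal transition genes 7 were apart and higher and 1 lower, and of 25 NF-kB and cytokine genes 8 were higher and 4 lower. In the SRF list 15 of 26 were apart and higher, beside 11.8% of all genes. TAGLN had 48.9, 61.8 and 60.7 CPM with siRNA3, 49.6, 43.7 and 47.6 CPM with siRNA1, 5.60, 4.97 and 5.32 CPM with siRNA2 and 4.98, 5.35 and 5.53 CPM in control. It was called apart, but the siRNA3 and siRNA1 libraries overlapped and their log2 difference was small (0.28 ± 0.09, edgeR adjusted p = 0.0171). ACTA2 was lower with siRNA3 than with siRNA1 (-1.38 ± 0.09) and slightly higher than with siRNA2 (0.28 ± 0.09). In the YAP list 12 of 27 were apart and higher; CTGF had 63.9, 66.8 and 78.5 CPM with siRNA3, 22, 24.6 and 22.3 CPM with siRNA1, 4.12, 3.91 and 4.09 CPM with siRNA2 and 13.3, 13.7 and 14.3 CPM in control, so no other A549 group reached it. In the NRF2 list 16 of 33 were apart and lower, beside 11.6% of all genes. GCLC had 91.3, 88.2 and 84.1 CPM with siRNA3, 130, 153 and 126 CPM with siRNA1, 167, 162 and 182 CPM with siRNA2 and 394, 393 and 352 CPM in control. GCLM went the other way between siRNAs, higher with siRNA3 than with siRNA1 (0.94 ± 0.14) and siRNA2 (0.76 ± 0.14). Of 15 airway secretory genes tested here 7 were apart and lower, and 0 higher. Only 10 of the 15 passed the filter in the siRNA3 and control libraries. The others needed siRNA1 or siRNA2 libraries to pass, so a lower level with siRNA3 was favoured by the filter. CEACAM6 had 7.87, 7.90 and 8.40 CPM with siRNA3, 200, 198 and 207 CPM with siRNA1, 383, 378 and 396 CPM with siRNA2 and 27.2, 21.2 and 28.7 CPM in control.

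Among single genes, IL11 had 102, 106 and 123 CPM with siRNA3, 6.98, 6.18 and 7.31 CPM with siRNA1, 9.81, 9.68 and 10.4 CPM with siRNA2 and 8.69, 10.7 and 10.6 CPM in control. Its log2 difference was 4.02 ± 0.11 against siRNA1, 3.47 ± 0.11 against siRNA2 and 3.46 ± 0.11 against control. RRAD had 60.3, 56.6 and 67.0 CPM with siRNA3 and at most 3.94 CPM in any library of the other groups. SPANXB1, a testis gene with close copies, had 6.95, 6.3 and 9.38 CPM with siRNA3 and at most 1.03 CPM elsewhere. CDH1 had 4.21, 4.20 and 3.03 CPM with siRNA3, 144, 152 and 147 CPM with siRNA1, 175, 173 and 170 CPM with siRNA2 and 50.1, 42.0 and 45.2 CPM in control, so it fell with siRNA3 and lay above control with both other siRNAs. The complement gene C5 had 12.7, 13.9 and 11.6 CPM with siRNA3, 170, 189 and 167 CPM with siRNA1, 178, 166 and 188 CPM with siRNA2 and 111, 86.9 and 89.3 CPM in control. Others that were lower than in all 3 groups were the scavenger receptor SCARA5, neurotensin NTS, the granin CHGB, the MHC class II peptide loader HLA-DMB, the transcription factor SOX21, SPX, FGG and FGL1, with smallest differences of -2.83 to -4.16 on the log2 scale. These 10 lower genes and the higher CGB5, CGB8, RRAD, IL11, CREB5, SPANXB1, TMEM40 and DOCK2 were apart with and without siRNA3 replicate 3.

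**Figure D5:**
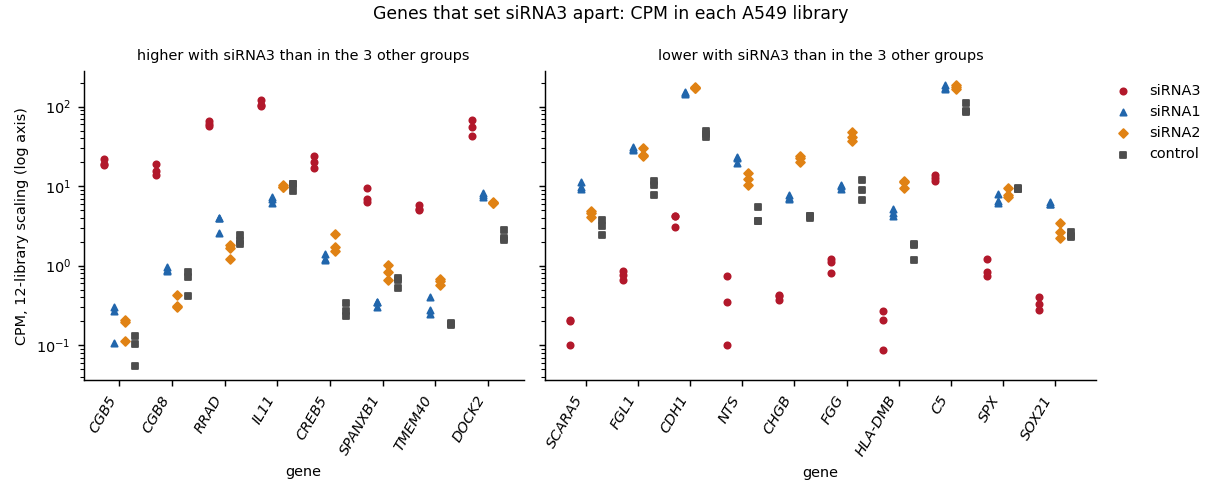
CPM on a log axis (y) of genes (x) that set siRNA3 apart, in each library of siRNA3 (red circles), siRNA1 (blue triangles), siRNA2 (orange diamonds) and control (grey squares). siRNA3 lies above every other library in the 8 genes at left and below every other library in the 10 at right. The genes were chosen for the largest differences from all 3 groups, so this separation follows from the choice.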

How the data were processed

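The submitters' processing notes name RSEM and hg19, while the aligner, annotation and RSEM version were not given in the sources used here. Expected counts, the values tested, were deposited by the authors as RSEM's estimated reads of each gene. Deposited TPM values, which per the file headers come from the same tables, served as an alternative only. Between 10.2% and 11.1% of expected counts were not whole, since RSEM shares reads between similar transcripts. Counts were rounded and tested with edgeR 4.0.16 in R 4.3.3 (TMM scaling, quasi-likelihood F test, group means only), with genes kept at 1 CPM or more in at least 3 libraries and called at a Benjamini-Hochberg adjusted p under 0.05. CPM values are TMM-scaled. The 12-library fit used the same filter over 12. DESeq2 1.42.0 and limma 3.58.1 gave alternatives, and the test was checked on simulated counts. RSEM length, as deposited, was averaged over the 6 libraries. Members and the 32 gene lists were chosen with earlier results of these data known. Named were BLM, the 15 highest and 15 lowest genes called with and without siRNA3 replicate 3 with a mean of at least 5 CPM in the higher group, up to 6 members per list by adjusted p or to complete a family, and 10 higher and 10 lower genes apart from the other groups; genes with no protein-coding name are left out, and other list members named in the text were chosen after their values were seen. Promoter sequences are from RefSeq. Some genes that the naming rule picks are not reported here.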

Additional observations from a re-analysis of the deposited data

How the results depend on the processing

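The fold change of BLM stayed between -3.63 and -3.18 under the 17 alternatives to the fit of siRNA3 against control. Its counts of called genes stayed within 1.5 times of 8154 in all 17, and the 2282 called genes with a log2 fold change of 1 or more in size became 1493 on log2 of TPM plus 1, where the added 1 shrinks changes of low genes by construction. Leaving out single libraries gave 6853 to 9632 called genes, the highest without siRNA3 replicate 3. Of 204 named genes tested 187 kept direction and call in every alternative, and 0 of 204 reversed; the genes whose calls changed were mostly ribosomal, histone and RNA interference genes. Of 35 gene list medians 18 stayed within the spread between replicates in all 17 alternatives and 17 moved past it in at least 1, most of them, 10, on log2 of TPM plus 1. The unfolded protein response median moved past its spread in 10 alternatives but stayed between -0.45 and -0.38. Medians that changed sign were those of ERBB genes (-0.24 to 0.14), ribosomal proteins (-0.13 to 0.16), RNA interference genes (-0.13 to 0.21) and double-stranded RNA sensors (-0.03 to 0.27), and oxidative phosphorylation genes, at 0.00, ran from -0.20 to 0.10. siRNA3 and control libraries share only a replicate number: deviations of same-numbered libraries correlated at -0.01, -0.38 and -0.27 over 13344 genes, and 0 of 3 siRNA3 libraries correlated best with its own number. With the replicate number as a block 7303 genes were called against control, 3694 higher and 3609 lower, and BLM was at -3.57. The blocked fits of 12 libraries called 9443 genes against siRNA1 and 8315 against siRNA2, and 3096 set siRNA3 apart from all 3 other groups.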

Other observations

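These 4 groups were assembled after the values were seen, so their counts describe the choice and are given with no test of the group; 61.1% of all genes tested were called. Of 17 placental hormone and pregnancy genes 6 were tested and all 6 rose. A gene under 1 CPM in control, such as PSG5, CGB7 and CGB3 below, passed the filter only through the 3 siRNA3 libraries. For such genes the filter left no outcome but a higher level. PSG5 had 2.23, 2.2 and 2.48 CPM with siRNA3 and 0.0748, 0.0514 and 0.171 CPM in control, and CGB7 had 1.62, 1.23 and 1.71 CPM with siRNA3 and 0.0998, 0.129 and 0.147 CPM in control. CGB3 had 2.01, 1.45 and 1.37 CPM with siRNA3 and was listed at 0 in all 3 control libraries. These genes lie in families of near-identical copies, so the share of each is uncertain.

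Genes of regulated exocytosis split, with 6 of 23 tested higher and 13 lower. CPLX2, a complexin that clamps vesicle fusion, had 47.9, 51.2 and 36.2 CPM with siRNA3 and 315, 259 and 332 CPM in control (-2.74 ± 0.16, edgeR adjusted p = 3.85e-06). The vesicle protein SYP fell by 3.21 ± 0.20 on the log2 scale and VAMP1 by 1.84 ± 0.09. UNC13D, the priming factor of immune cell granules, rose instead, with 34.1, 35.3 and 25.0 CPM with siRNA3 and 5.04, 5.25 and 4.97 CPM in control (2.63 ± 0.15).

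Fibrinogen and complement genes, made mainly by liver, fell in 12 of 15 tested cases and rose in 2. C3, the central complement protein, had 15.9, 16.6 and 15.1 CPM with siRNA3 and 51.6, 41.4 and 59.1 CPM in control (-1.68 ± 0.13). FGA (-2.41 ± 0.23) and FGB (-1.78 ± 0.18) fell, and CD59, which blocks the membrane attack complex, rose (0.71 ± 0.11). The other riser, C4A (1.40 ± 0.20), shares reads with its near-identical copy. Of 13 tested leukocyte signalling genes 10 rose and 3 fell. ARHGDIB, a regulator of small GTPases in blood cells, had 23.2, 21.7 and 31.1 CPM with siRNA3 and 2.00, 1.98 and 1.89 CPM in control (3.69 ± 0.17), while VAV3, a guanine nucleotide exchange factor, fell (-1.82 ± 0.13). Of 13 leukocyte markers 4 were tested, of which 3 rose and 1 fell, while the marker PTPRC was at most 0.0323 CPM in these libraries.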
